A study of Homo sapiens with 2 samples.

Results

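The matrix metalloproteinases MMP1, MMP2, MMP3, MMP9, MMP13 and MMP14, their tissue inhibitors TIMP1, TIMP2 and TIMP3, and basigin (BSG, also called CD147 or EMMPRIN) were followed in RBMS1-depleted and control MDA-MB-231 cells. These 10 genes were chosen by symbol from the 49627 genes listed in the transcript files of the study. MDA-MB-231 is an established human triple-negative breast cancer line. Total RNA of each culture was sequenced, giving 2 RNA-seq libraries. The knockdown library came from cells carrying a lentiviral pLKO.1 shRNA against RBMS1, and the control library came from cells labelled as control. According to the methods of the study, pLKO.1 empty vector served as the negative control, stable lines were selected and kept with puromycin, and the line grew in L-15 medium with serum and without CO2. An empty vector carries no hairpin, so the shRNA itself also separates the groups, and 1 line stands for each group.

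Matrix metalloproteinases are zinc endopeptidases that cut collagens, laminins, fibronectin and other pericellular proteins. Most are secreted as inactive proenzymes, whereas MMP14 is anchored in the plasma membrane and activates proMMP2 on the cell surface with the help of TIMP2. The TIMPs bind the active site of the enzymes, and TIMP3 differs from the others in being held in the extracellular matrix and in also inhibiting ADAM17. BSG is a glycosylated immunoglobulin-superfamily protein known to raise the production of metalloproteinases and to accompany lactate transporters to the membrane. MDA-MB-231 cells are widely used to study invasion through collagen.

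The results turned on MMP1, MMP14 and TIMP3, the 3 members that differed at least 2-fold between the libraries after 1 FPKM was added to each level. RBMS1 is an RNA-binding protein, and proteins of its family bind short AU-rich stretches of RNA. The annotated 3′-UTRs of the 3 genes are therefore shown around each ATATA, in capitals, in windows of 25 bases on the sense strand of GRCh38 (GENCODE release 29). The MMP1 sites lie on the minus strand of chromosome 11, in exon 10, at chr11:102790285-102790309, chr11:102790217-102790241 and chr11:102790158-102790182.
MMP1 site a: gatacacagaATATAatcttattta
MMP1 site b: ttttgtactgATATAatttagttcc
MMP1 site c: ttatggattcATATAggccagagtt
The MMP14 site lies on the plus strand at chr14:22847571-22847595.
MMP14 site: tataattattATATAtgaattccat
The TIMP3 sites lie on the plus strand at chr22:32859654-32859678, chr22:32860294-32860318, chr22:32860381-32860405 and chr22:32860935-32860959.
TIMP3 site a: cttcgtgataATATAatctctattt
TIMP3 site b: ctatccacagATATAgccaagtaga
TIMP3 site c: acacatttgcATATAcccacatggg
TIMP3 site d: taaaactataATATAaattctccta

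Among these genes the MMP1 3′-UTR was short and dense in such letters. It is 492 nt long with a GC content of 37.2%, and it held 3 ATATA and 3 ATTTA, the core pentamer of AU-rich elements, or 6.10 per kb of each. Over the 3′-UTRs of 9367 coding genes the median length was 1023 nt, and 57.9% held an ATATA and 70.1% an ATTTA. MMP1 had more ATATA per kb than 94.7% of these genes and more ATTTA per kb than 93.9%. Site a of MMP1 is followed by an ATTTA after 5 bases, and site b directly by another.
MMP1 ATTTA a: atataatcttATTTAtacctcagtt
MMP1 ATTTA b: tttttttactATTTAgaatgtagcc
MMP1 ATTTA c: tactgatataATTTAgttccacaaa
These 3 windows lie at chr11:102790275-102790299, chr11:102790244-102790268 and chr11:102790212-102790236.
The 3′-UTR of TIMP3, which differed in the opposite direction, is 3666 nt long and held 4 ATATA and 7 ATTTA, or 1.09 and 1.91 per kb. MMP14 has 1722 nt with 1 ATATA and 0 ATTTA. TIMP2 has 2690 nt with 8 ATATA and 4 ATTTA, and the 98 nt of TIMP1 and the 749 nt of BSG held neither. Thus the letters were found in genes that were lower, higher and little different in the knockdown library. The matches are letters in a window, and binding of RBMS1 was not measured.

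The level of a gene is given in FPKM, the fragments mapped to a transcript divided by its length and by the depth of the library, summed over its annotated transcripts and the assembled transcripts that share an intron with it. The range after a value is the interval that Cufflinks writes for that transcript, summed over the gene, and covers the estimate within 1 library only. There was 1 library per group, so no replicate check and no SD exist. No test between the groups was made here, and every difference describes these 2 libraries. The number of reads is not given in the sources used here, while 1 FPKM stood for a median coverage of 12.4 in the knockdown and 11.4 in the control library, so the knockdown library was 1.09 times as deep. RBMS1 itself was at 3.76 FPKM (3.12 to 5.39) in the knockdown library and 24.1 FPKM (21.7 to 27.7) in the control library, or 15.6% of control. VIM, CD44, AXL, CAV1 and LGALS1, known to be high in MDA-MB-231, were at 154 to 668 FPKM in the knockdown and 112 to 634 FPKM in the control library. Of 6 markers known to be low in this line, 3 were under 1 FPKM in both libraries, ESR1, PGR and CDH1. The others were above it in both, with ERBB2 the highest, and EPCAM was at 1.93 FPKM in the knockdown and 3.66 FPKM in the control library. The 6 fibroblast, 5 leukocyte and 3 endothelial markers were all under 1 FPKM in both libraries. Fibroblasts are a rich source of metalloproteinases and TIMPs, and their markers summed to 1.83 FPKM in the knockdown and 2.87 FPKM in the control library.

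Of the 10 genes, 6 had a mean of at least 1 FPKM over both libraries: MMP1, MMP14, TIMP1, TIMP2, TIMP3 and BSG. MMP2 and MMP9 were detected below that level, and MMP3 and MMP13 were listed at 0 in both libraries. Fold differences are expressed as the log2 ratio of knockdown over control after adding 1 FPKM to each. MMP1 and MMP14 were at least 2-fold lower in the knockdown library, 2 of 6 members against 2.8% of the 11186 genes with a mean of at least 1 FPKM. TIMP3 was at least 2-fold higher, 1 of 6 against 2.96% of genes. In either direction these were 3 of 6 against 5.76%. For 5 of 6 members, all but BSG, the intervals of both libraries did not overlap, against 24.7% of all genes. The shares over all genes were not matched for level, and the 6 members had means of 28.5 to 193.4 FPKM. The median log2 ratio of the 6 members was −0.15, with 3 lower and 3 higher, and that of all genes was 0.02. It became 0.21, with 2 lower and 4 higher, when an assembled transcript in the TIMP2 3′-UTR was counted as TIMP2.

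**Figure D1:**
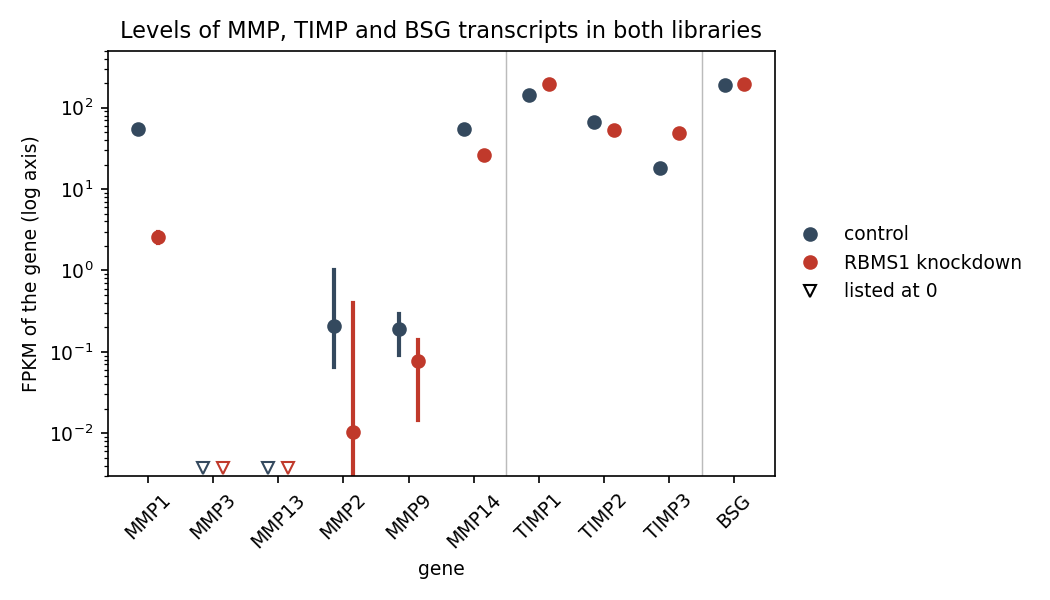
FPKM of each gene (log axis) in the control library (dark) and the RBMS1 knockdown library (red), with bars for the within-library Cufflinks interval where it is wider than the point and open triangles for genes listed at 0. MMP1 spans 2.59 to 54.3 FPKM between the libraries, while BSG sits at 195.3 and 191.4 FPKM.

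MMP1, the interstitial collagenase that cuts fibrillar collagen, differed most. It was at 2.59 FPKM (2.20 to 2.98) in the knockdown library and 54.3 FPKM (51.5 to 57.2) in the control library. The knockdown library thus held 4.76% of the control level, a log2 ratio of −3.95, and the control was 21.0-fold higher, with a range of 17.3 to 26.0 from the ends of the intervals. The intervals were far apart, and in bulk RNA fewer cells with MMP1 transcripts and fewer transcripts per cell cannot be told apart. Among 11186 genes MMP1 was number 28 from the lowest log2 ratio, and number 4 among the 10882 that were above 0 in both libraries. The gene (ENSG00000196611) lies at chr11:102789920-102798160 on the minus strand. Its only annotated transcript, ENST00000315274, has 10 exons and 1970 nt and was covered 32.0 times per base in the knockdown and 626 times in the control library. The pseudogene WTAPP1 overlaps MMP1 and MMP3 on the opposite strand and was listed at 0 in both libraries.

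MMP14, the membrane-type enzyme, was at 26.1 FPKM (24.8 to 28.2) in the knockdown and 54.6 FPKM (52.0 to 57.9) in the control library. The control was 2.09-fold higher (1.84 to 2.34), and the log2 ratio was −1.03, just past the 2-fold limit. With 5 FPKM added in place of 1 the log2 ratio was −0.94, so the 2-fold call for MMP14 rests on that choice. All of its signal was assigned to ENST00000311852, of 10 exons and 3732 nt, and the other 5 annotated transcripts were listed at 0. The gene (ENSG00000157227) lies at chr14:22836557-22849027 on the plus strand. In the control library MMP1 and MMP14 were at the same level within their intervals, with a ratio of MMP1 to MMP14 of 0.996, whereas in the knockdown library the ratio was 0.0991.

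The gelatinases MMP2 and MMP9 were barely detected. MMP9 (ENSG00000100985, chr20:46008908-46016561) was at 0.0764 FPKM (0.0146 to 0.138) in the knockdown and 0.190 FPKM (0.0920 to 0.288) in the control library, and the intervals overlapped. MMP2 (ENSG00000087245, chr16:55389700-55506691) was at 0.0102 FPKM in the knockdown and 0.205 FPKM in the control library, again with overlapping intervals. The control value of MMP2 came from ENST00000219070 at 0.0832 FPKM and an assembled transcript of 13 exons at 0.122 FPKM, whereas the knockdown value came from another annotated transcript, ENST00000437642. ENST00000219070 alone was at 0 in the knockdown library, with an upper end of 0.0121 FPKM, and its interval in the control library ran from 0.0230 to 0.143 FPKM, so for that transcript the intervals were apart. The gene sums did not separate the libraries for either gelatinase.

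MMP3, or stromelysin, at chr11:102835801-102843803, and the collagenase MMP13, at chr11:102942995-102955734, were listed at 0 for all of their annotated transcripts. An exact 0 in such a file can be a failed estimate. Cufflinks marks ENST00000299855 of MMP3 as fully supported by reads in the control library and not in the knockdown library. That mark is common, since 19.8% of the 5446 coding genes listed at 0 in both libraries carried it in the control and 20.7% in the knockdown library. Of all annotated transcripts at 0 in a library, 35.3% carried it in the knockdown and 34.0% in the control library. No transcript of MMP13 carried it.

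TIMP3, the matrix-bound inhibitor, was at 49.1 FPKM (46.8 to 51.4) in the knockdown and 17.9 FPKM (17.0 to 18.9) in the control library. It was 2.74-fold higher in the knockdown library (2.48 to 3.03), a log2 ratio of 1.40, and the intervals were far apart. TIMP3 was number 209 of 11186 from the highest log2 ratio, and number 47 among the 10882 genes above 0 in both libraries. Its single annotated transcript, ENST00000266085, has 5 exons and 4603 nt and was covered 607 times per base in the knockdown and 203 times in the control library. The gene (ENSG00000100234) lies at chr22:32801701-32863043 on the plus strand within SYN3, a gene of the opposite strand that was listed at 0 in both libraries.

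TIMP1, the most abundant of the inhibitors, was at 193.9 FPKM (181.2 to 207.3) in the knockdown and 141.5 FPKM (131.0 to 152.8) in the control library. It was 1.37-fold higher in the knockdown library (1.19 to 1.58), with a log2 ratio of 0.45, and did not reach 2-fold. The gene (ENSG00000102265) lies at chrX:47582313-47586789 on the plus strand. Both transcripts above 0 contributed in like shares. ENST00000218388 was at 105.7 FPKM in the knockdown and 74.3 FPKM in the control library, or 54.5% and 52.5% of the gene. The shorter ENST00000377017 was at 88.2 and 67.2 FPKM.

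TIMP2, the partner of MMP14 in the activation of proMMP2, was at 53.6 FPKM (51.0 to 56.3) in the knockdown and 67.3 FPKM (64.2 to 70.5) in the control library. The log2 ratio was −0.32, and the intervals did not overlap. The gene (ENSG00000035862) lies at chr17:78852977-78925387 on the minus strand, and all of the annotated signal was assigned to ENST00000262768, of 5 exons and 3652 nt. The direction depended on which transcripts were counted. The knockdown library held an assembled transcript at 34.3 FPKM (32.3 to 36.3) that shares no intron with TIMP2. Its long exon of 2434 nt, at chr17:78852978-78855411, lies wholly in the TIMP2 3′-UTR, which runs from 78852977 to 78855666, and a further exon of 51 nt lies at chr17:78876097-78876147, between annotated exons. Counted with TIMP2, it gave 87.9 FPKM in the knockdown library against 67.3 FPKM, and the log2 ratio became 0.38. Antisense genes over TIMP2 were low, with AC100788.1 at 1.73 and 0.817 FPKM in the knockdown and control libraries. CEP295NL, a coding gene that overlaps TIMP2 on the same strand, was listed at 0 in both libraries.

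BSG was at 195.3 FPKM (186.5 to 205.6) in the knockdown and 191.4 FPKM (182.6 to 201.6) in the control library. The intervals overlapped, and the log2 ratio was 0.03, which became −0.00 when both libraries were scaled to a common median. The ratio of the levels was 1.02, with a range of 0.925 to 1.13 from the ends of the intervals. The gene (ENSG00000172270) lies at chr19:571277-583493 on the plus strand. Only 1 of its 16 annotated transcripts was listed above 0, ENST00000353555 of 8 exons and 1616 nt.

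**Figure D2:**
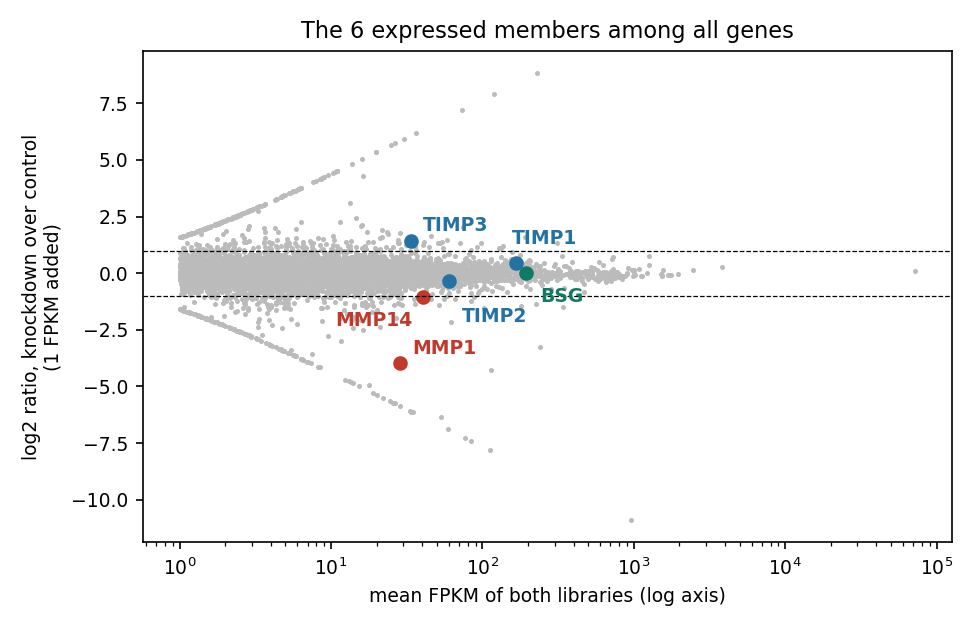
Log2 ratio of knockdown over control (1 FPKM added) against the mean FPKM of both libraries (log axis) for genes with a mean of at least 1 FPKM in grey, with the 6 members above 1 FPKM in colour and dashed lines at 2-fold. MMP1 lies at −3.95 and TIMP3 at 1.40, the points on the slanted edges are genes at 0 in 1 library, and TIMP1, TIMP2 and BSG lie between the lines.

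FPKM is a value per length, so the members can be ordered within a library. In the control library the order of levels from the top was BSG, TIMP1, TIMP2, MMP14, MMP1 and TIMP3, followed by MMP2 and MMP9. MMP14 and MMP1 were not separated by their intervals, nor were MMP2 and MMP9. In the knockdown library the order was BSG, TIMP1, TIMP2, TIMP3, MMP14 and MMP1, followed by MMP9 and MMP2. There BSG and TIMP1 overlapped, TIMP2 and TIMP3 overlapped, and so did MMP9 and MMP2. TIMP3 thus stood below both metalloproteinases in the control library and above both in the knockdown library.

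The summed level of the 6 metalloproteinases was 28.8 FPKM in the knockdown and 109.3 FPKM in the control library, 3.79-fold higher in the control. The summed level of the 3 TIMPs was 296.6 FPKM in the knockdown and 226.8 FPKM in the control library, 1.31-fold higher in the knockdown. The TIMP sum was 10.3 times the MMP sum in the knockdown library and 2.07 times in the control library, a 4.96-fold difference. MMP1 made up 49.7% of the MMP sum in the control and 8.99% in the knockdown library, where MMP14 made up 90.7%. TIMP3 made up 7.91% of the TIMP sum in the control and 16.6% in the knockdown library. The ratio of TIMP2 to MMP14, the pair that assembles proMMP2 on the cell surface, was 1.23 in the control and 2.05 in the knockdown library. With the assembled transcript in its 3′-UTR counted as TIMP2, the knockdown library gave 3.36 for this ratio, 330.9 FPKM for the TIMP sum and 11.5 for the ratio of TIMP to MMP sums. These are transcript levels, and protein and enzyme activity were not measured here.

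**Figure D3:**
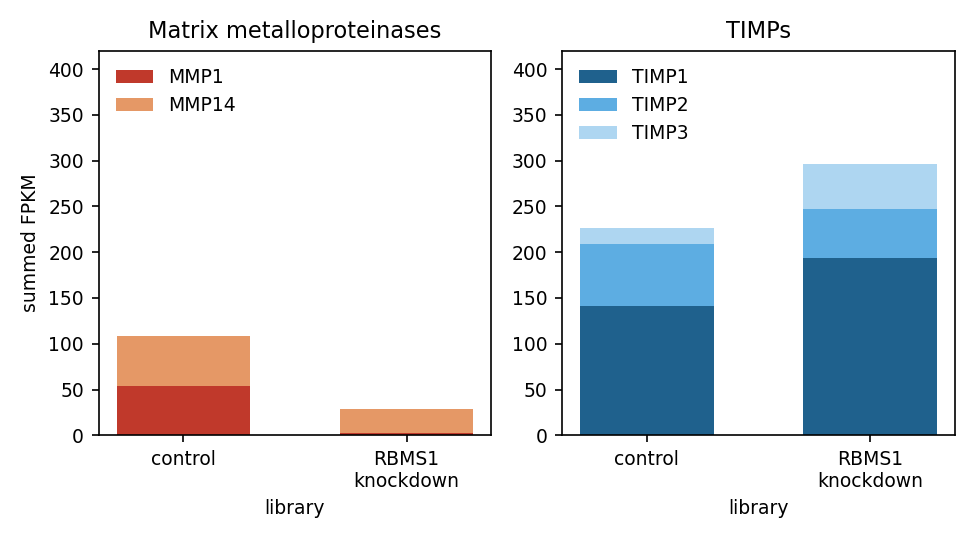
Summed FPKM of MMP1 and MMP14 (left) and of TIMP1, TIMP2 and TIMP3 (right) in each library, on the same axis from 0; the other metalloproteinases are too low to be seen. The MMP bar is almost all MMP14 in the knockdown library, and the TIMP bar holds more TIMP3 there.

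Little signal was assigned to the rest of the metalloproteinase family, though a listed 0 is not a measured absence. Of 17 other MMP genes 8 were listed at 0 in both libraries and 8 were below a mean of 1 FPKM. MMP15, another membrane-type enzyme, was the only one above it, at 0.885 FPKM in the knockdown and 1.37 FPKM in the control library, a log2 ratio of −0.33. Below that level the intervals were apart for MMP16 and MMP8. MMP16, also of the membrane type, was at 0.755 FPKM (0.619 to 1.21) in the knockdown and 0.158 FPKM (0.120 to 0.537) in the control library. Its log2 ratio of 0.60 was 0.23 with annotated transcripts only. MMP8, a collagenase, was listed at 0 in the knockdown library, with an interval of 0 to 0, and was at 0.117 FPKM (0.0153 to 0.564) in the control library. An interval without width gives MMP8 no direction. Of 8 other inhibitors of metalloproteinases, 2 were above a mean of 1 FPKM. TFPI2, a Kunitz-type inhibitor of serine proteases in the matrix, was at 12.2 FPKM (10.7 to 13.9) in the knockdown and 30.6 FPKM (27.9 to 33.6) in the control library, a log2 ratio of −1.26 and in the opposite direction to TIMP3. RECK, a membrane-anchored inhibitor, was at 1.83 and 1.57 FPKM, with overlapping intervals. TIMP4, named after its values were seen, was at 0.422 FPKM (0.253 to 0.591) in the knockdown and 0.0353 FPKM (0 to 0.0965) in the control library, under 1 FPKM in both with intervals apart.

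Among 22 ADAM and ADAMTS genes, the adamalysin relatives of the MMPs that TIMP3 can inhibit in part, 11 were above a mean of 1 FPKM. With 1 FPKM added to each level, 0 of these 11 reached 2-fold. Their median log2 ratio was 0.07, which became −0.22 with annotated transcripts only, when ADAMTS6 was at −1.15 in place of 0.66 and ADAMTS12 at 3.44 in place of 0.22. With assembled transcripts included, the lowest and highest log2 ratios were those of ADAMTS1, at 0.620 FPKM in the knockdown and 1.87 FPKM in the control library, and ADAMTS15, at 18.4 and 10.4 FPKM. Of 14 genes for the activation or stabilisation of proMMPs, 5 were above a mean of 1 FPKM, with a median log2 ratio of 0.03, and 1 passed 2-fold. That was LCN2, a lipocalin that binds MMP9, at 0.199 FPKM in the knockdown and 35.3 FPKM in the control library, a log2 ratio of −4.92. FURIN, the convertase that removes the propeptide of MMP14, had the highest log2 ratio of this list, 0.36, at 15.4 FPKM (14.5 to 16.9) in the knockdown and 11.8 FPKM (11.1 to 13.2) in the control library. With annotated transcripts only, PLAU exceeded it with a log2 ratio of 0.47.

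Of 15 genes for partners and relatives of BSG, 12 were above a mean of 1 FPKM, 6 lower and 6 higher, with a median log2 ratio of 0.01. SLC7A5, an amino acid transporter in the complex of BSG with CD98, was at 190.6 FPKM in the knockdown and 82.0 FPKM in the control library, a log2 ratio of 1.21 that was 0.82 with annotated transcripts only. With these the median of the list was 0.15, and the gene past 2-fold was PPIA, cyclophilin A and a ligand of BSG, at a log2 ratio of 1.78 in place of −0.06. The hyaluronan receptor CD44, which docks metalloproteinases at the cell surface, had the lowest log2 ratio of the list with assembled transcripts included, −0.41, at 153.9 FPKM (146.5 to 165.3) in the knockdown and 204.2 FPKM (194.7 to 217.8) in the control library. With annotated transcripts only, the lactate transporter gene SLC16A7 was lower, at a log2 ratio of −0.93. Of 22 matrix proteins that metalloproteinases cut or that lie beside them, 11 were above a mean of 1 FPKM, 4 lower and 7 higher, with a median log2 ratio of 0.05 and 0 past 2-fold. With annotated transcripts only, the median was 0.28 and 1 gene, TNC, passed 2-fold at 1.04. The basement membrane collagen chain COL4A2 had the lowest log2 ratio of these, −0.67, at 12.2 FPKM (11.5 to 14.5) in the knockdown and 20.1 FPKM (18.4 to 23.7) in the control library. Fibronectin, FN1, was at 31.3 FPKM in the knockdown and 19.7 FPKM in the control library, a log2 ratio of 0.64.

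**Figure D4:**
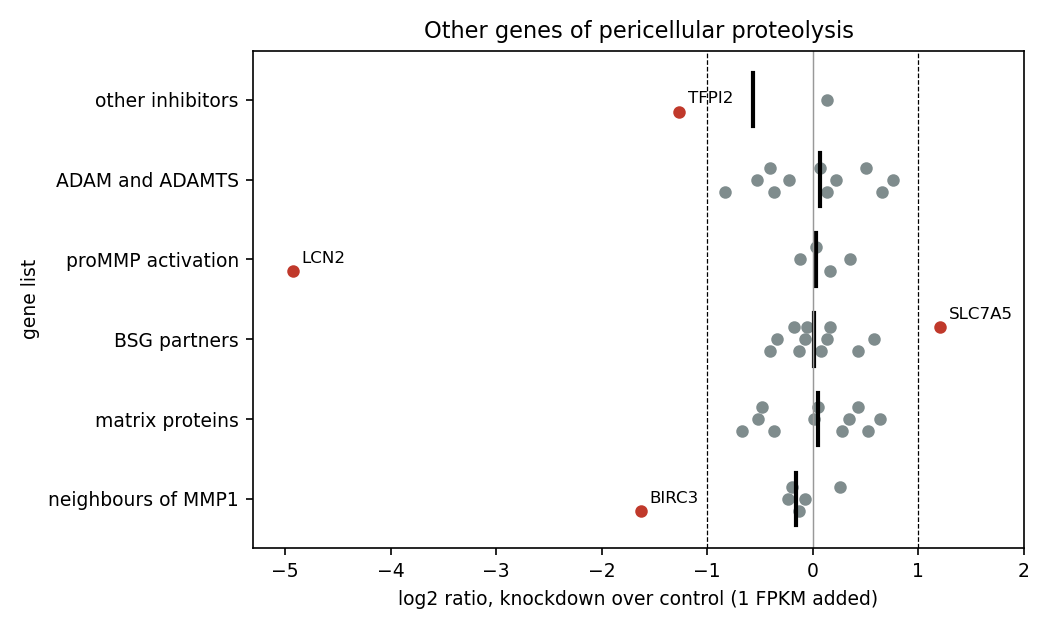
Log2 ratio of knockdown over control (1 FPKM added) for the genes with a mean of at least 1 FPKM in 6 lists, 1 point per gene, with vertical bars for the median of a list and dashed lines at 2-fold. The 4 genes past 2-fold are red and named, LCN2 at −4.92 lies farthest out, and most other points lie near 0.

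MMP1, MMP3 and MMP13 lie in a cluster of metalloproteinase genes on chromosome 11, and 13 genes in or beside the cluster were compared with them. Of these, 6 were above a mean of 1 FPKM, with a median log2 ratio of −0.16. The apoptosis inhibitor BIRC3 was at 9.35 FPKM (8.78 to 10.5) in the knockdown and 30.9 FPKM (29.4 to 32.9) in the control library, a log2 ratio of −1.62. The other 5 lay closer to 0, with log2 ratios of −0.07 for YAP1, −0.19 for BIRC2, −0.23 for TMEM123, −0.13 for DCUN1D5 and 0.26 for DYNC2H1. With annotated transcripts only, BIRC2 was at −0.49 and DYNC2H1 at 0.62, the median was −0.20, and BIRC3 stayed at −1.62. The metalloproteinase genes around MMP1 were listed at or near 0, and among the MMP genes of the cluster only MMP1 was above a mean of 1 FPKM.

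Promoter windows of 300 bases, 250 before and 50 after the start, were matched in the RefSeq table of GRCh38.p14 for 4 of the 10 genes, MMP14, TIMP1, TIMP3 and BSG, with 5 windows in all. TGANTCA, the letters bound by AP-1 and read on both strands, was in 7.71% of 35116 windows and in 0 of these 5. TATAAA, searched on both strands, was in 11.5% of windows and in 1 of the 5, a BSG window. GC content of these windows ranged from 55% for MMP14 to 75.3% for a BSG window, and the median of all windows was 58.7%.

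**Figure D5:**
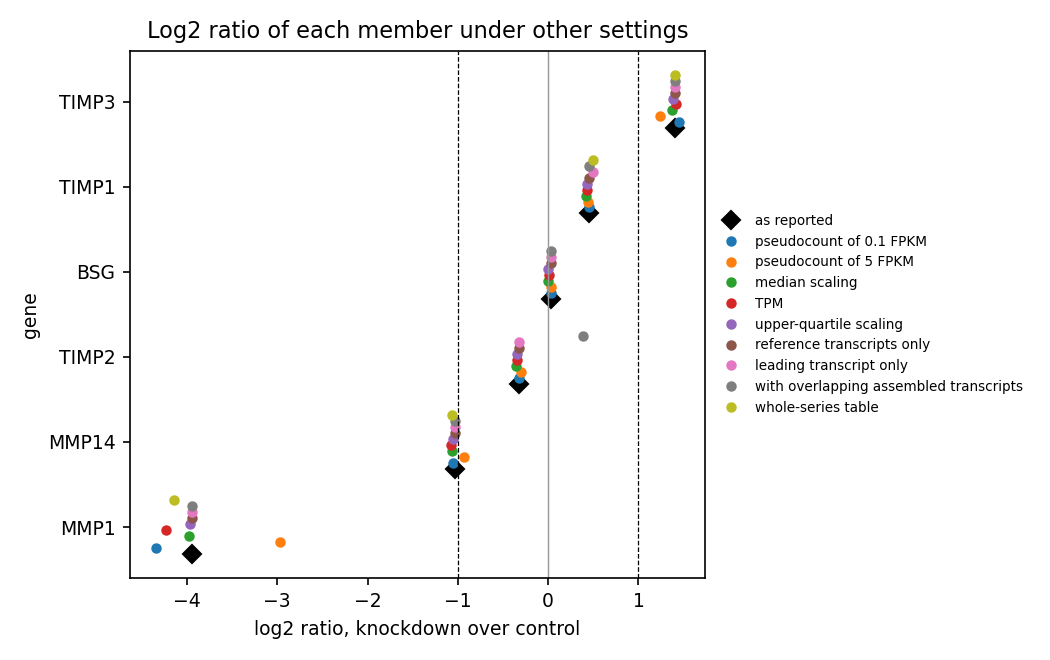
Log2 ratio of knockdown over control of the 6 members under each alternative setting (coloured points) and as reported (black diamonds), with dashed lines at 2-fold. MMP1, MMP14, TIMP1 and TIMP3 keep their side of 0 under each, and TIMP2 lies at 0.38 once the overlapping assembled transcript is counted.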

How the data were processed

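Total RNA was extracted with Trizol, and libraries were made by Illumina protocols. The authors deposited, for each library, transcripts with an FPKM, its interval and coverage. The submitters' processing notes name Bowtie2 2.0.6, TopHat2 2.0.9, Cufflinks 2.1.1 and Cuffdiff 2.1.1. The build, annotation, strandedness and read length are not given in the sources used here. A deposited table of 7236 transcripts also holds FPKM, on a scale set over both libraries, with the authors' fold changes, p-values and q-values, which were not used. It lists only transcripts with p under 0.05.

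Transcripts were joined on Ensembl identifiers to GENCODE release 29 (GRCh38), and 98.1% of those matched began at the annotated position. The FPKM of a gene was summed over its annotated transcripts and assembled transcripts sharing at least 1 intron on the same strand. These sums held 29.1% of all FPKM deposited for the knockdown library and 28.1% for the control library, and the rest was assigned to no gene sum. Genes with a mean of at least 1 FPKM were ranked by log2((knockdown + 1)/(control + 1)), a scale that understates differences of low genes. The summing was tested on simulated data. Python 3.11.15, pandas 2.3.3, numpy 2.4.6 and matplotlib 3.10.9 were used. Groups came from the labels, which name no batch. With 1 library per group no test was made. Members and lists were chosen with earlier results of these data known. Of the list of matrix proteins, 1 gene is not reported here and was left out of its counts. The genes named were the members, RBMS1, the lowest and highest gene of each list, any other MMP above 1 FPKM and the neighbours of MMP1 above it. Markers and genes that overlap a member are named besides, and TIMP4, MMP8, MMP16, PLAU, PPIA, TNC, ADAMTS6, ADAMTS12 and SLC16A7 were named after their values were seen. ATATA and ATTTA were counted in the 3′-UTR of the annotated transcript with the highest mean FPKM, in coding genes above 1 FPKM. The alternatives were other pseudocounts, scalings, filters and transcript sets and the whole-series table.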

Additional observations from a re-analysis of the deposited data

Results flagged for a closer look

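Signal outside the gene sums was found for 2 members. An assembled transcript in the TIMP2 3′-UTR that shares no intron with the gene, and so was not counted in it, reached 34.3 FPKM in the RBMS1-depleted cells. No such transcript was assembled over TIMP2 in the control library.

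MMP3 was listed at 0 in both transcript files but stands in the deposited table of both libraries, where ENST00000299855 is at 0.0471 FPKM in the knockdown and 0.910 FPKM in the control library. Of 5446 coding genes listed at 0 in both transcript files, 472 have a transcript in that table. Counted by transcript the conflict is wider, since 4931 of the 7236 transcripts of that table were at 0 in both transcript files.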

How the results depend on the processing

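Each group has 1 library, so no replicate could be left out. No paired analysis was possible because each group has 1 library and no test was made. The alternatives were compared with the range between the ends of the within-library intervals. With 0.1 FPKM added the log2 ratio of MMP1 was −4.34, and as TPM it was −4.23, for which the cause was not tested. With 5 FPKM added it was −2.97 for MMP1, −1.73 for RBMS1 and 1.24 for TIMP3, since a larger addition shrinks each ratio, and 1 member, MMP1, was at least 2-fold lower. TIMP2 reversed to 0.38 when the overlapping assembled transcript was counted. MMP14 ranged from −1.08 to −0.94 and TIMP1 from 0.42 to 0.50 over their 9 alternatives. TIMP3 was the 1 member at least 2-fold higher under all 11 alternatives of that count. With annotated transcripts only, the median of the ADAM and ADAMTS list was −0.22, and 5.02% and 5.44% of all genes were at least 2-fold lower and higher. With 5 FPKM added these were 1.19% and 1.11%. The depth in reads is unknown, and the gene sums do not separate the libraries for MMP2, MMP3, MMP9 and MMP13.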

Other observations

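The deposited table of both libraries, which lists only transcripts below a limit on the authors' p and is on its own scale, 1.77 and 1.81 times that of the knockdown and control files, holds transcripts of 6 members. MMP1 is at 4.69 FPKM in the knockdown and 21.3-fold higher in the control library, and MMP14 at 47.5 and 100.6 FPKM. TIMP3 is at 82.9 and 30.6 FPKM, and the longer TIMP1 transcript, ENST00000218388, at 196.4 and 138.4 FPKM. MMP2 is listed at 0 in the knockdown and at 0.267 FPKM in the control library. The table was chosen on these libraries, so it is no independent measure of them.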
